A study of Rattus norvegicus with 54 samples.

Results

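The Slc25 family of mitochondrial carriers was followed in hearts of male Wistar rats held under a shift work schedule. Its members were the rows of the expression table whose symbol starts with Slc25a. There were 34 such rows, and 33 genes once the copy of Slc25a22 was counted with its twin, out of 10257 rows in all. The other 15 carriers of the list used for grouping, among them Slc25a12 and Slc25a13, were not analysed here.

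Hearts, atria included, came from 54 rats in 3 groups of 18. C rats were controls with food at all times. W rats worked in a slowly rotating drum from ZT2 to ZT10 on weekdays for 5 weeks and also ate at will, where ZT counts hours after lights on. WRF rats did the same work and had food only outside work hours. All rats were killed on a day without work, 3 per group at each of ZT1, 5, 9, 13, 17, and 21. Values are fpkm, fragments scaled to the length of the transcript and to the mapped fragments of the library, and they do not show the number of reads behind them.

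Carriers of this family sit, with few exceptions, in the inner mitochondrial membrane. They move solutes between the cytosol and the matrix, many but not all by exchange of one solute for another. The heart depends on them to export ATP, to take up phosphate and ADP, to bring in fatty acids as acylcarnitines, and to pass reducing equivalents through the malate-aspartate shuttle. Carriers are made in the cytosol and inserted into the membrane by the TOM complex, the small TIM chaperones, and the TIM22 complex.

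Some libraries stood apart. WRF51 (ZT9) held 31.5 fpkm of the muscle creatine kinase Ckm and WRF62 (ZT5) held 170 fpkm, where the other 52 rats held 981 to 2734 fpkm. WRF51 held 1419 fpkm of the lung gene Ager and WRF62 held 106 fpkm of the T cell gene Cd3e, against at most 6.69 and 4.75 fpkm in those 52 rats. W21 held 1027 fpkm of Alb, a liver gene. The atrial light chain Myl7 reached 100 fpkm in 6 C, 7 W, and 9 WRF rats. In bulk heart RNA, fewer cells of a type and less RNA per cell cannot be told apart. Results are therefore given with and without WRF51 and WRF62.

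The adenine nucleotide and phosphate carriers dominated the family. Slc25a4, the ADP/ATP carrier of heart and skeletal muscle, ran from 2031 to 4391 fpkm in C rats with a median of 3223. It had a median of 3204 fpkm in W rats (2420 to 3854) and of 3367 fpkm in the 16 WRF rats left without WRF51 and WRF62 (2822 to 4313). Its mean placed it 15th in the table. Slc25a3, which carries phosphate, and copper in addition, stood at a median of 1217 fpkm in C rats (805 to 1724) and of 1187 fpkm in W rats (733 to 1576). These 2 genes made up a median of 85.9% of the family's summed fpkm in C rats, 86.4% in W rats, and 86.0% in the 16 WRF rats. The 3 groups overlapped almost completely in both genes.

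Slc25a5, the ADP/ATP carrier found in most tissues and in growing cells, stood far below Slc25a4. Per 100 fpkm of Slc25a4 there was a median of 3.86 fpkm of Slc25a5 in C rats (3.38 to 6.197), 4.12 in W rats (3.57 to 5.53), and 4.53 in the 16 WRF rats (3.29 to 6.27). WRF51 had 143 and WRF62 had 63.4. RefSeq lists 9 pseudogenes named after Slc25a5, 8 after Slc25a39, 2 after Slc25a3, and 1 each after Slc25a4, Slc25a15, Slc25a33, and Slc25a38. The aligner kept 1 place per read, so reads shared with such copies make these levels uncertain.

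Only a few other carriers were abundant. Slc25a11, the oxoglutarate-malate exchanger of the malate-aspartate shuttle, had 218 fpkm as its median in C rats (141 to 258). Slc25a20, which moves acylcarnitines inward and carnitine outward, had 101 fpkm (48.5 to 124). Slc25a39, needed for glutathione import, had 78.4 fpkm (57.1 to 110). Slc25a34, grouped with the carboxylate carriers, had 46.1 fpkm (18.9 to 74.2). Over all 54 rats, 2 members had a mean over 1000 fpkm, 4 lay between 50 and 1000, 7 between 10 and 50, 8 between 5 and 10, and 12 below 5 fpkm.

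Several carriers of cofactors and iron followed. The coenzyme A carrier Slc25a42 had 16.9 fpkm as its median in C rats and the S-adenosylmethionine carrier Slc25a26 had 10.2 fpkm. Of the mitoferrins, which bring iron to the matrix, the widely expressed Slc25a28 had 12.9 fpkm and the erythroid Slc25a37 had 1.82 fpkm. Slc25a46, a relative in the outer membrane that acts on mitochondrial shape, had 13.1 fpkm. Slc25a2, an ornithine carrier, was lowest at 0.897 fpkm, and 0 of the members' values were listed at 0.

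The remaining carriers had C medians of 13.9 fpkm or less. Of the calcium-regulated carriers of ATP-Mg and phosphate, Slc25a23 had a C median of 13.9 fpkm, Slc25a25 one of 3.43 fpkm, and Slc25a24 one of 1.94 fpkm. Among amino acid carriers the C medians were 8.91 fpkm for the glycine carrier Slc25a38, 7.57 for the glutamate carrier Slc25a22, 6.56 for Slc25a29, 4.52 for Slc25a15, and 4.08 fpkm for Slc25a44. The W medians of these 5 genes were 8.84, 7.33, 5.58, 4.51, and 4.06 fpkm, and their WRF medians were 10.4, 7.03, 6.67, 3.51, and 4.31 fpkm. All 3 groups overlapped in each.

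The dicarboxylate carrier Slc25a10 stood at a C median of 6.30 fpkm, the orphan Slc25a45 at 4.65, Slc25a32, which carries folate, at 3.37, Slc25a16 at 2.65, the uncoupling protein relative Slc25a14 at 1.96, and Slc25a40, the paralog of Slc25a39, at 1.45 fpkm. Each of these 6 genes had W and WRF medians within the range of the C rats.

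**Figure D1:**
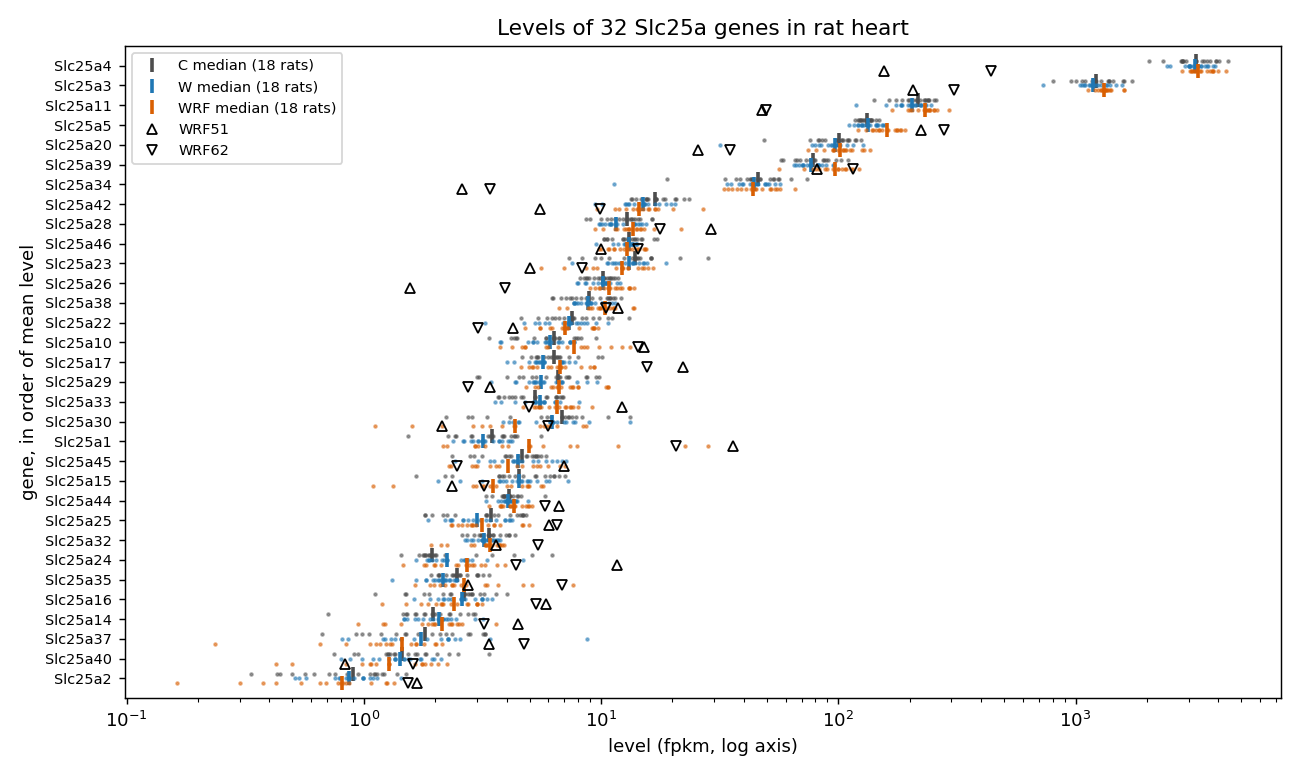
Level of each of 32 Slc25a genes in fpkm (log axis), ordered by mean. Small points are single rats, bars are the medians of 18 rats per group, and open triangles are WRF51 and WRF62. The group medians nearly coincide for most genes, while Slc25a4 is at 155 fpkm in WRF51 and 442 fpkm in WRF62.

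The family looked different in WRF51 and WRF62. Slc25a4, Slc25a3, and Slc25a11, the most abundant in the other hearts, stood low in both, while Slc25a5, next in order, stood high in both. WRF51 lay below all 52 other rats in 9 of 33 members and above them in 12. WRF62 lay below them in 7 and above them in 7. In the whole table WRF51 was below the others in 13.2% and above them in 47.1% of genes, and WRF62 in 15.7% and 40.6%.

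Both libraries were below the 52 others in Slc25a4, Slc25a3, Slc25a11, Slc25a34, and Slc25a26. Slc25a11 read 47.6 fpkm in WRF51 and 49.5 fpkm in WRF62 against 118 to 293 fpkm in the 52. Slc25a34 read 2.58 and 3.41 fpkm against 11.4 to 74.2 fpkm.

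Both were above the others in Slc25a5, Slc25a10, Slc25a16, Slc25a17, Slc25a2, and Slc25a25. Slc25a5 read 223 fpkm in WRF51 and 280 fpkm in WRF62, where the 52 others ended at 191 fpkm. Slc25a17, the family member of peroxisomes, read 22.1 and 15.6 fpkm against at most 10.1 fpkm. Slc25a24, one of the calcium-regulated carriers of ATP-Mg and phosphate, reached 11.7 fpkm in WRF51 alone, against at most 6.203 fpkm. The parts that lung or lymphoid RNA played in these levels were not tested.

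The first comparison asked how work with food kept outside work hours bore on these genes. Members called different passed the Kruskal-Wallis test over the 3 groups (adjusted p of at most 0.05 over all rows) and a 2-sided exact Mann-Whitney test between 2 groups. Against C rats, 2 of 33 members were higher in WRF rats, Slc25a5 and Slc25a39, and 0 were lower. Across all genes 8.13% were called higher and 0.721% lower. After median-of-ratios scaling of the libraries that split of all genes was 2.17% higher and 2.06% lower, and 0 members were called. Against W rats, 3 members were higher, Slc25a5, Slc25a39, and Slc25a35, and 0 were lower, beside 8.26% of all genes higher and 0.692% lower. The comparisons with C and with W rats share the WRF rats.

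With WRF51 and WRF62 set aside, 2 members were higher in WRF than in C rats, Slc25a5 among them, where the table had 5.72% higher, and 0 were lower, where it had 0.517%. Against W rats 2 members were higher, again with Slc25a5, where 5.77% of all genes were higher, and 0 were lower (0.526% of all).

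Sizes came from limma as differences of log2(fpkm + 1), which understate the change of low genes. The median difference of WRF from C rats was -0.03 over the 33 members and 0.08 over all genes. Without WRF51 and WRF62 it was 0.04 over the members and 0.03 over all genes. Limma itself called 4 members higher and 0 lower at an adjusted p under 0.05, where the table had 11.3% higher and 1.68% lower. They were Slc25a1, Slc25a5, Slc25a33, and Slc25a39. Against W rats limma called 4 members higher (12.4% of all genes) and 1 lower (1.83% of all genes), the last being Slc25a30.

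With WRF51 and WRF62 set aside, limma again called 4 members higher in WRF than in C rats, but not Slc25a39 (9.32% of all genes), and 0 lower (1.59%). Against W rats it called 6 higher (10.1% of all genes) and 0 lower (2.09%). Among them were Slc25a1, Slc25a5, Slc25a35, Slc25a39, and Slc25a26, the S-adenosylmethionine carrier, whose difference was 0.17 ± 0.06 (adjusted p = 0.0455).

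Slc25a5 was the member with the smallest adjusted p between WRF and C rats. It ran from 117 to 148 fpkm in C rats with a median of 132, from 111 to 157 fpkm in W rats with a median of 133, and from 121 to 280 fpkm in WRF rats with a median of 161. Of the 18 WRF rats, 12 lay above the highest C rat, and 10 of these remained when WRF51 and WRF62 were set aside. The ranges overlapped at the lower end only.

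For Slc25a5 the ratio of medians was 1.22 against C rats (exact Mann-Whitney p = 1.35e-05, Kruskal-Wallis adjusted p = 0.0110) and 1.21 against W rats. The limma difference from C rats was 0.33 ± 0.07 (SE, n = 18 per group, adjusted p = 0.00296). Without WRF51 and WRF62 the ratio of Slc25a5 was 1.19, the difference was 0.26 ± 0.05, and the Kruskal-Wallis adjusted p was 0.0232. Scaled by median-of-ratios size factors, Slc25a5 had a lower ratio of 1.11 and lost the rank call (Kruskal-Wallis adjusted p = 0.0510), with a limma adjusted p of 0.0191.

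Within the WRF group Slc25a5 followed the numbers of the rats. WRF1 to WRF6 held 121 to 153 fpkm with a median of 141, WRF50 to WRF55 held 160 to 223 fpkm with a median of 183, and WRF41 to WRF46 with WRF62 held 140 to 280 fpkm with a median of 168. The labels do not say what the numbers stand for. Leaving out WRF1 to WRF6 gave a ratio of 1.34 to C rats (Kruskal-Wallis adjusted p = 0.00247), leaving out WRF50 to WRF55 gave 1.13 (0.155), and leaving out WRF41 to WRF46 with WRF62 gave 1.19 (0.109).

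Without WRF1 to WRF6, 10 of 33 members were called between WRF and C rats, 8 higher and 2 lower, where 24.9% of all genes were called higher and 5.15% lower. Without either of the other runs 0 members and 0 genes of the table were called by these rank tests. For Slc25a5 the exact Mann-Whitney p against C rats was 0.00115 without WRF50 to WRF55 and 0.000794 without WRF41 to WRF46 and WRF62.

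Atrial content differed between the groups as well, and among WRF rats it went with the runs of numbers. WRF1 to WRF6 held 3.37 to 97.0 fpkm of Myl7, and WRF41 to WRF46 with WRF62 held 674 to 23938 fpkm. WRF50 to WRF55 fell on both sides of 100 fpkm. Among WRF rats, atrial content and run can therefore hardly be told apart, for Slc25a5 or for the other genes below. Slc25a5 had a median of 173 fpkm in the 9 WRF rats with at least 100 fpkm of Myl7 and 148 fpkm in the 9 others. In C rats the medians were 130 and 133 fpkm. Among rats with less than 100 fpkm of Myl7 the ratio of WRF to C rats was 1.12 (exact Mann-Whitney p = 0.0227), with a Kruskal-Wallis adjusted p of 0.491. WRF51, at 20.2 fpkm of Myl7 and 223 fpkm of Slc25a5, was among these rats. WRF62 was among those with more Myl7. Both were kept in these splits by Myl7, here and for the genes below.

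Slc25a39 was higher in WRF rats by a ratio of medians of 1.24 against C and 1.27 against W rats. It ran from 57.1 to 110 fpkm in C rats (median 78.4), from 65.2 to 95.8 fpkm in W rats (median 76.4), and from 56.5 to 122 fpkm in WRF rats (median 97.1). The groups overlapped widely, and 4 of 18 WRF rats lay above the highest C rat.

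The limma difference of Slc25a39 from C rats was 0.24 ± 0.08 (SE, adjusted p = 0.0457), and its Kruskal-Wallis adjusted p was 0.0440. This call was lost without WRF51 and WRF62 (Kruskal-Wallis adjusted p = 0.0650) and without WRF62 alone (0.0671) or W21 alone (0.0555), while the ratio stayed between 1.21 and 1.24. Slc25a39 had a median of 107 fpkm in the 9 WRF rats with at least 100 fpkm of Myl7 and 81.1 fpkm in the 9 others. Among rats with less Myl7 the ratio to C rats turned to 0.98.

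Red cell genes were also unequal. Alas2, Hbb, and Ahsp, the 3 of 4 erythroid markers in the table, summed to a median of 5438 fpkm in C (1306 to 22088), 5545 in W (234 to 40249), and 8770 fpkm in WRF rats (2972 to 39070). Their part in the level of Slc25a39 was not tested.

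**Figure D2:**
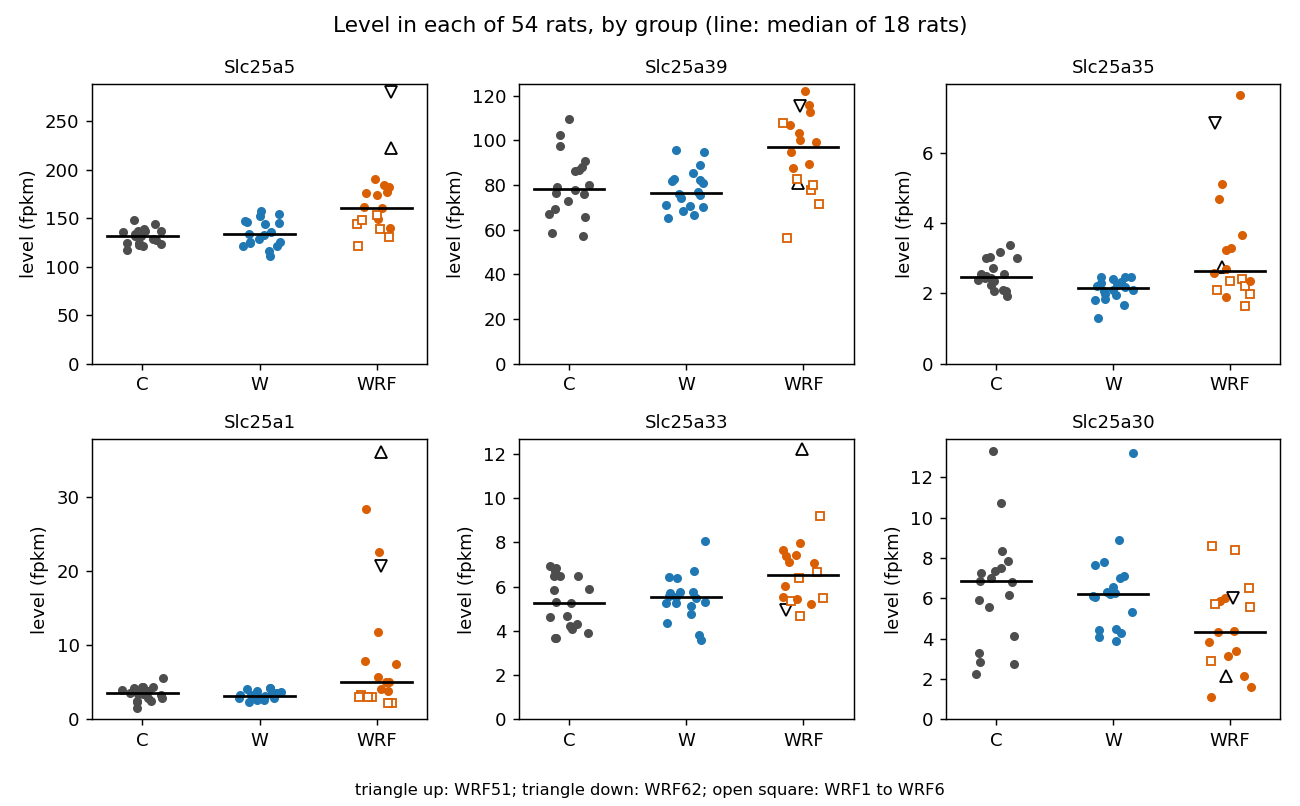
Level in fpkm of 6 Slc25a genes in each rat, by group, with a line at the median of 18 rats. Triangles are WRF51 and WRF62 and open squares are WRF1 to WRF6. Slc25a5 in WRF rats lies mostly above the C rats, whereas Slc25a1 and Slc25a35 are high in a few WRF rats.

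Slc25a35, a little studied relative grouped with the carboxylate carriers, differed between W rats and both other groups. It was low throughout, from 1.92 to 3.36 fpkm in C rats (median 2.47), 1.31 to 2.47 fpkm in W rats (median 2.15), and 1.65 to 7.64 fpkm in WRF rats (median 2.63). Of the 18 W rats, 17 lay below the C median. The ratio of medians was 0.87 for W over C rats (exact Mann-Whitney p = 0.00209, Kruskal-Wallis adjusted p = 0.0418) and 1.23 for WRF over W rats (p = 0.00464). Both calls were lost without WRF51 (adjusted p = 0.0571), without WRF62 (0.0550), and with both left out (0.0659), although the W and C rats were the same. The limma difference of W from C rats was -0.19 ± 0.10 (adjusted p = 0.9999).

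Slc25a1, the citrate carrier that feeds fatty acid synthesis in the cytosol, lies outside the rule for named genes and was picked after its values were seen. It ran from 1.54 to 5.59 fpkm in C rats (median 3.48), from 2.38 to 4.23 fpkm in W rats (median 3.19), and from 2.15 to 36.02 fpkm in WRF rats (median 4.99). The high values belonged to WRF51 (36.02 fpkm), WRF52 (28.3), WRF55 (22.6), WRF62 (20.7), and WRF53 (11.8). In all, 8 of 18 WRF rats and 0 of 18 W rats exceeded the highest C rat.

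The limma difference of Slc25a1 from C rats was 0.81 ± 0.22 (adjusted p = 0.0149). With WRF51 and WRF62 set aside it was 0.58 ± 0.19 (adjusted p = 0.0432). The Kruskal-Wallis adjusted p was 0.137, so the rank tests did not call it. Without WRF50 to WRF55 the ratio of medians was 1.02 (exact Mann-Whitney p = 0.465), without WRF41 to WRF46 and WRF62 it was 1.04 (p = 0.415), and without WRF1 to WRF6 it was 2.19. Among rats with less than 100 fpkm of Myl7 the ratio of medians was 0.895 and the limma difference 0.60 ± 0.30 (adjusted p = 0.280). These rats included WRF51, at 36.02 fpkm of Slc25a1.

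Markers of fat were high in some of the same rats. Adipoq and Cidea, the 2 of 5 adipocyte markers in the table, summed to 428 fpkm in WRF52, 328 in WRF55, 295 in WRF62, and 183 in WRF53, but to 9.35 fpkm in WRF51. The sum ran from 47.2 to 256 fpkm in C rats, 40.2 to 206 fpkm in W rats, and 9.35 to 428 fpkm in WRF rats. Slc25a35 was highest in the same 4 rats, at 7.64, 5.12, 6.84, and 4.69 fpkm. Their part in Slc25a1 and Slc25a35 was not tested. The C rat with the highest sum, C27 at 256 fpkm, held 5.59 fpkm of Slc25a1 and 2.55 fpkm of Slc25a35. Its sum was mostly Cidea, which reached 250 fpkm in C rats. Adipoq alone read 180 fpkm in WRF52, 103 in WRF55, 171 in WRF62, 49.6 in WRF53, and 2.64 in WRF51. It was at most 27.2 fpkm in C and 11.7 fpkm in W rats, so C27 is not alike to those 4 rats in Adipoq. The median of Adipoq was 0.197 fpkm in C and 0.0993 fpkm in W rats. Cidea read at least 40.1 fpkm in all 52 rats other than WRF51 and WRF62, and 6.70 fpkm in WRF51. The sum therefore does not measure fat alone, and its low value in WRF51 came with the low Cidea.

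Slc25a33, which carries pyrimidine nucleotides for mitochondrial DNA and RNA, was higher in WRF than in C rats by limma only (0.29 ± 0.09, adjusted p = 0.0283). Its median was 5.27 fpkm in C (3.66 to 6.91), 5.52 in W (3.58 to 8.07), and 6.52 fpkm in WRF rats (4.67 to 12.2). The Kruskal-Wallis adjusted p was 0.107. The limma call of Slc25a33 held with WRF51 and WRF62 both left out (0.27 ± 0.09, adjusted p = 0.0357), but not without WRF51 alone (adjusted p = 0.0554) or after median-of-ratios scaling (0.131).

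Slc25a30, a relative of the uncoupling proteins and also named after its values were seen, was the member with the most negative difference. It had a median of 6.84 fpkm in C (2.23 to 13.3), 6.23 in W (3.87 to 13.2), and 4.33 fpkm in WRF rats (1.11 to 8.61). The difference of WRF rats was -0.44 ± 0.18 from C (limma adjusted p = 0.0777) and -0.49 ± 0.18 from W rats (adjusted p = 0.0495). The groups overlapped. The difference from W rats was lost without WRF51 alone (limma adjusted p = 0.0851), without W21 alone (0.0625), and without WRF51 and WRF62 (0.0649). After median-of-ratios scaling Slc25a30 was lower in WRF than in C rats (-0.51, limma adjusted p = 0.0432). Among rats with less than 100 fpkm of Myl7 the ratio of WRF to C rats was 0.964, against 0.633 in all rats.

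The most abundant carriers were not called. Without WRF51 and WRF62 the difference of WRF from C rats was 0.11 for Slc25a4 (95% interval -0.05 to 0.27) and 0.11 for Slc25a3 (-0.05 to 0.27). With both libraries the means fell and the intervals widened, to -0.79 to 0.19 for Slc25a4 and -0.49 to 0.18 for Slc25a3, while the ratio of medians was 1.01 for Slc25a4 and 1.09 for Slc25a3. After median-of-ratios scaling these ratios were 0.939 and 0.954. Slc25a11 and Slc25a20 likewise had ratios of 1.07 and 1.01 beside limma differences of -0.12 and -0.09 with all rats, and ratios of 0.955 and 0.902 after scaling.

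**Figure D3:**
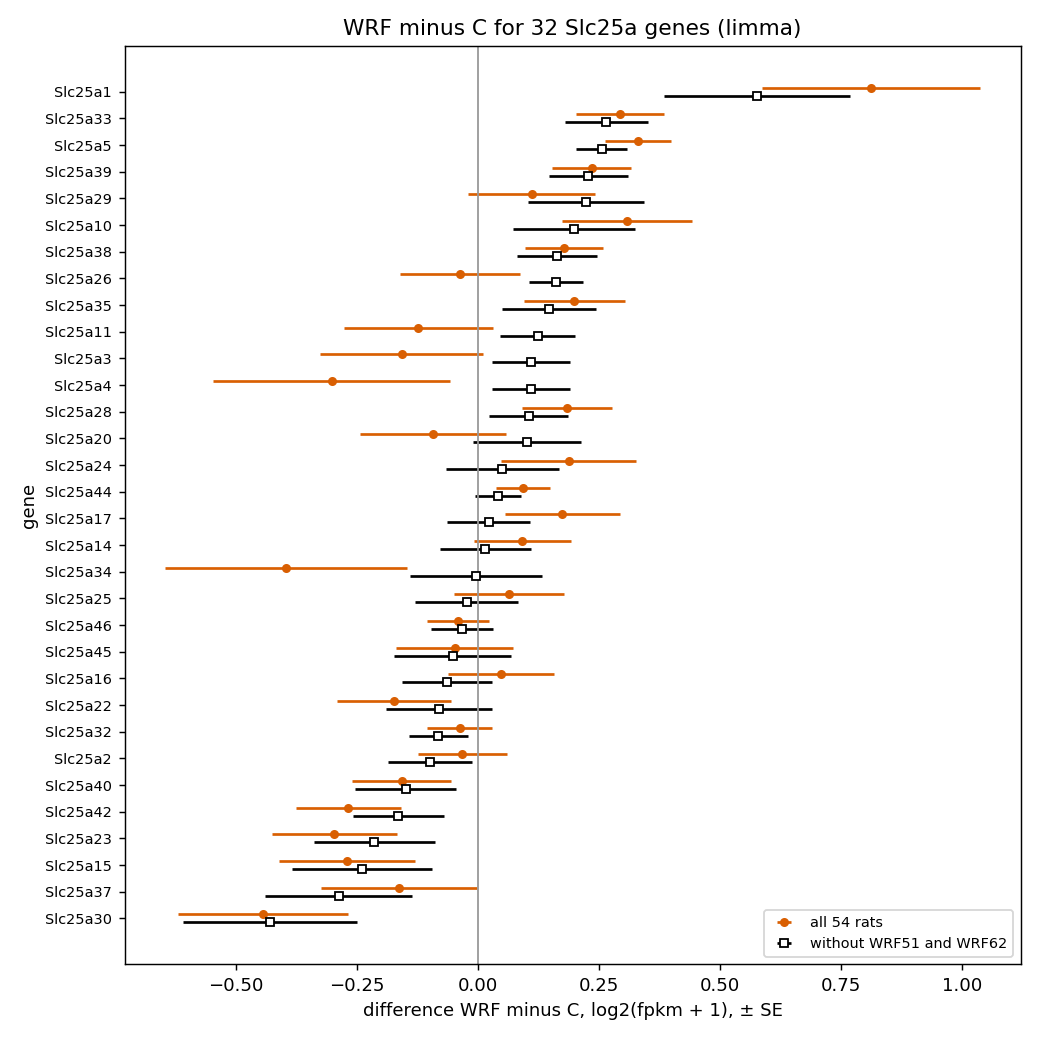
Difference of WRF from C rats for each of 32 Slc25a genes on the log2(fpkm + 1) scale with its SE, with all 54 rats and without WRF51 and WRF62. Slc25a4 moves from -0.30 to 0.11 when the 2 libraries are left out, and Slc25a5 from 0.33 to 0.26.

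The second comparison asked how work alone, with food at all times, bore on these genes. W rats differed from C rats in 1 member, the lower Slc25a35 described above, where 0.234% of all genes were called higher and 0.195% lower. Without WRF51 and WRF62 in the test over 3 groups, 0 members were called lower (0.078% of all genes) and 0 higher (0.146%). By limma 0 members and 0 genes were called, and 0 members had an unadjusted p under 0.05, although 2 members did when WRF51 and WRF62 were left out of the fit. The differences over the members ran from -0.20 to 0.08. The 95% interval was -0.11 to 0.17 for Slc25a5 and -0.39 to 0.28 for Slc25a3. Slc25a42 had medians of 16.9 fpkm in C, 15.1 in W, and 14.5 fpkm in WRF rats, with a Kruskal-Wallis adjusted p of 0.152.

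The machinery that inserts carriers was examined next. Of 12 measured genes of carrier import and insertion, out of 13 listed, 6 were called higher in WRF than in C rats and 0 lower, beside 8.13% of all genes higher and 0.721% lower. They were Timm22, the channel of the insertion complex, its partner Timm29, the small chaperones Timm10b and Timm13, and the outer membrane receptors Tomm20 and Tomm22. Agk, Timm9, Timm10, Timm8a1, Tomm70, and Tomm40 were not called. Their ratios of medians were 0.99, 1.16, 1.20, 1.23, 0.90, and 1.18. Timm13 had a median of 52.4 fpkm in C and 69.6 fpkm in WRF rats (0.38 ± 0.10, limma adjusted p = 0.00981), and Timm22 had 10.1 and 12.6 fpkm (0.22 ± 0.06, adjusted p = 0.00983). The median difference of the list was 0.15, against 0.08 over all genes.

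Without WRF51 and WRF62, 7 of these 12 were called higher, with Timm10 and Timm8a1 added and Timm29 lost, beside 5.72% of all genes. The median difference was 0.21 against 0.03 over all genes. After median-of-ratios scaling 0 were called, beside 2.17% of all genes higher, and the median difference was 0.06 against -0.0042 over all genes. In W rats 0 differed from C, where 0.234% of all genes were called higher and 0.195% lower.

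Of 27 other genes of transport across the mitochondrial membranes, out of 30 listed, 3 were called higher and 0 lower in WRF than in C rats, a share near the 8.13% called higher over all genes. Among them were Mtch1, an outer membrane relative of this family, and the outer membrane protein Tspo. The median difference of this list was -0.05 with all rats and 0.09 without WRF51 and WRF62, when 4 were called higher, Vdac2, Mtch1, Mtch2, and Tspo (5.72% of all genes). After scaling 0 were called, beside 2.17% of all genes higher and 2.06% lower. Between W and C rats 0 were called, beside 0.234% of all genes higher and 0.195% lower.

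The time of day was examined in each group with harmonic regression at a period of 24 h. In C rats 2 of 33 members were rhythmic at q under 0.05, Slc25a25 and Slc25a33, where the table had 0.848%. At an unadjusted p under 0.05 there were 8 members, and the table had 5.91%. Of W rats, 0 members and 0 genes of the table were called at q under 0.05, with 4 members at an unadjusted p under 0.05, where the table had 3.05%. Of WRF rats, 0 members were called at q under 0.05, where the table had 0.039%, with 4 members at an unadjusted p under 0.05 (6.35% of the table). With WRF51 and WRF62 left out of the WRF rats, 0 members were at q under 0.05 (0.00975% of the table).

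Slc25a25, a calcium-regulated carrier of ATP-Mg and phosphate, was low early in the light phase and high in the dark in C rats. Its values in C rats were 2.43, 1.81, and 1.94 fpkm at ZT1 and 2.25, 2.15, and 1.81 at ZT5. They were 3.54, 3.26, and 3.26 fpkm at ZT9 and 4.56, 3.32, and 4.68 at ZT13. At ZT17 they were 4.81, 3.68, and 4.68 fpkm, and at ZT21 they were 4.13, 4.43, and 4.66. The 6 values of ZT1 and ZT5 were all below the 12 of the later times. The fitted amplitude was 39.2% of the mean level with a peak at ZT16.1 (p = 1.60e-05, q = 0.00615, n = 18).

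In W rats the values of Slc25a25 were 2.35, 2.31, and 3.09 fpkm at ZT1, 3.28, 4.12, and 3.93 at ZT5, and 2.90, 2.19, and 4.09 at ZT9. They were 1.86, 2.62, and 2.74 fpkm at ZT13, 3.92, 4.21, and 2.61 at ZT17, and 3.40, 3.62, and 2.33 at ZT21. At ZT5 every W rat was above every C rat, and at ZT13 every W rat was below every C rat. The fitted amplitude of Slc25a25 over all W rats was 3.54% (p = 0.9205). W33 to W38 read 3.09, 3.93, and 4.09 fpkm at ZT1, 5, and 9 and 2.74, 2.61, and 2.33 fpkm at ZT13, 17, and 21. They were thus higher in the light than in the dark. The study reports that a single replicate series of W rats ran out of phase in clock genes. The labels do not say whether W33 to W38 were that series. A flat fit over all W rats therefore does not show that each run was flat, and Slc25a25 was not tested within runs.

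Times of WRF rats are those of their titles, and another label gives other times for 12 of them. In WRF rats the values of Slc25a25 at ZT13 were 4.69, 4.97, and 4.64 fpkm, above the 13 other WRF rats that remain without WRF51 and WRF62. The other label puts WRF42 and WRF52, both among these ZT13 rats, at ZT9. Those 2 libraries read 6.04 fpkm at ZT9 and 6.52 fpkm at ZT5. With them the amplitude was 24.2% (peak at ZT10.4, p = 0.110), and without them it was 23.1% (peak at ZT13.2, p = 0.0209, q = 0.570).

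The difference in the rhythm of Slc25a25 itself had an unadjusted p of 0.00162 between W and C rats and 0.00363 between WRF and C rats by a joint limma test of both harmonic terms. The limma adjusted p-values were 0.967 and 0.618. With WRF51 and WRF62 set aside the unadjusted p-values were 0.000238 and 0.0398. With the other time label of WRF rats, the p between WRF and C rats was 0.000379 (adjusted p = 0.853). Without W33 to W38 the p between W and C rats was 0.0204. Over all members 0 rhythm differences passed the adjusted test in any pair of groups, and 0 genes of the table did. At an unadjusted p under 0.05 there were 4 members between W and C rats (1.83% of all genes), 3 between WRF and C rats (5.76%), and 7 between WRF and W rats (6.71%). With WRF51 and WRF62 set aside there were 4 (3.92% of all genes), 1 (2.25%), and 2 (3.02%).

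The 4 members between W and C rats were Slc25a25, Slc25a29, Slc25a33, and Slc25a38, with and without those libraries. The 1 between WRF and C rats was Slc25a25, and Slc25a45 was among the 2 between WRF and W rats.

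Slc25a33 followed a similar course in C rats. Its values were 4.61, 3.70, and 4.32 fpkm at ZT1, 4.09, 3.66, and 3.89 at ZT5, and 6.69, 4.21, and 5.83 at ZT9. They were 6.48, 6.47, and 6.49 fpkm at ZT13, 6.91, 5.29, and 6.86 at ZT17, and 5.25, 4.69, and 5.89 at ZT21. The values of ZT13 and ZT17 were all above those of ZT1 and ZT5. The amplitude was 25.9% with a peak at ZT14.8 (p = 7.13e-05, q = 0.0151). After median-of-ratios scaling the q of this fit was 0.152 and the call was lost, while Slc25a25 kept its call (q = 0.0250).

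In W rats, with the runs pooled, the amplitude of Slc25a33 was 4.54% (p = 0.796). In WRF rats it was 21.7% with a peak at ZT11.9 (p = 0.0443, q = 0.568), and without WRF51 and WRF62 it was 16.2% with a peak at ZT12.9 (p = 0.0296, q = 0.597). WRF51 held the highest value, 12.2 fpkm at ZT9. The rhythm of Slc25a33 differed between W and C rats at an unadjusted p of 0.0309 (adjusted p = 0.9999) and between WRF and C rats at 0.176. With the other time label of 12 WRF rats, the limma p between WRF and C rats was 0.0129 (adjusted p = 0.878).

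The calls in C rats depended on which of the 3 runs of 6 rats were kept. Without C17 to C22 the q was 0.513 for Slc25a25 and 0.443 for Slc25a33, without C33 to C38 it was 0.386 and 0.564, and without C25 to C30 it was 0.0578 for Slc25a33, while Slc25a25 was still called (p = 1.31e-05). The unadjusted p with 12 rats stayed at 0.00363 or below for Slc25a25 and at 0.00748 or below for Slc25a33. The Kruskal-Wallis test over the 6 times gave q = 0.761 for both. With 3 rats at each time, the smallest p this rank test can give is limited. After adjustment over all genes it can hardly reach q under 0.05, so it cannot decide these calls.

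**Figure D4:**
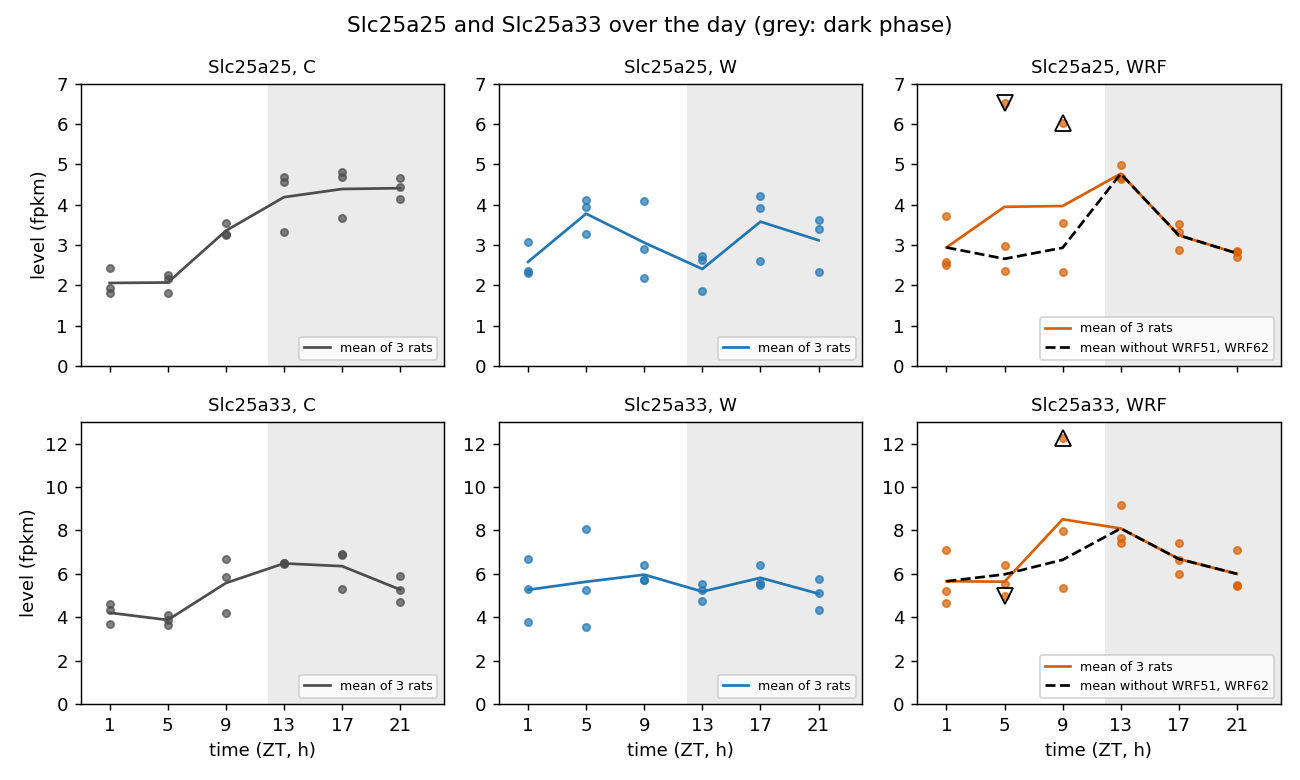
Level of Slc25a25 and Slc25a33 in fpkm against time in ZT for C, W, and WRF rats. Points are rats, lines are means of 3, triangles are WRF51 and WRF62, and the dashed line leaves them out. In C rats Slc25a25 goes from 2.06 fpkm at ZT1 to 4.41 fpkm at ZT21, while in W rats the means lie between 2.41 and 3.78 fpkm.

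The promoters of these 2 carriers, both called rhythmic in C rats before scaling, are shown because both hold the same palindrome. RefSeq promoters (assembly GRCr8) were found for 27 of the 33 members, each from 250 bases before to 50 bases after the start of the gene. Printed here are the 250 bases before the start, 5′ to 3′, of Slc25a25 at chr3:36116582-36116831 and of Slc25a33 at chr5:165502974-165503223, both on the minus strand. Capitals mark the cAMP response element TGACGTCA and the E-box CACGTG.
Slc25a25: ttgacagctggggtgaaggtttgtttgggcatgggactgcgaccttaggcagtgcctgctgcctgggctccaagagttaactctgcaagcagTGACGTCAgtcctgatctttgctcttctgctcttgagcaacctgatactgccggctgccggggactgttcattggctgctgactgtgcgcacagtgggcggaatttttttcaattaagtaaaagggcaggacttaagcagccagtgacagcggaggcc
Slc25a33: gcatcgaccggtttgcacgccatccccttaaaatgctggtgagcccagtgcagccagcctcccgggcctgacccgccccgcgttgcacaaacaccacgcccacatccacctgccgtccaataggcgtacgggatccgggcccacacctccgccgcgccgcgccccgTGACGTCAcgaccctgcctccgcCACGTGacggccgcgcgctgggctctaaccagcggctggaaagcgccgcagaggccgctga

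TGACGTCA begins 158 bases before the start of Slc25a25 and 84 bases before that of Slc25a33, and CACGTG begins 61 bases before that of Slc25a33. Of 27 members, TGACGTCA was in these 2, and it was in 1.91% of the 27457 promoters of the same length. CACGTG was in Slc25a2 and Slc25a33, and in 6.65% of all promoters. The D-box TTATGTAA (0.881% of all) was in 0 members. AGGTCA, to which nuclear receptors bind (15.7% of all), was in Slc25a16, Slc25a34, and Slc25a39, and its longer form AAGGTCA (4.37% of all) was in Slc25a34.

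In all 11 motifs were searched on both strands, after the rhythms were known. The shorter TGACG, which TGACGTCA contains and which overlaps CACGTG in Slc25a33, was in 8 members (21.96% of all). CCAAT was in 16 members (37.7%), GGGCGG in 22 (34.9%), and TGTTCT in 3 (20.1%). The NRF1 motif (0.932%) and the serum response element (0.0401%) were in 0. A match in these letters is a description and not a bound site.

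Other carriers had peaks in the same part of the day in C rats at an unadjusted p under 0.05. The amino acid carrier Slc25a29 had an amplitude of 30.3% and a peak at ZT14.8 (p = 0.00964, q = 0.409). The glycine carrier Slc25a38, which serves heme synthesis, had 20.2% at ZT14.7, the dicarboxylate carrier Slc25a10 24.8% at ZT13.3, Slc25a42 15.1% at ZT14.0, and Slc25a34 20.6% at ZT17.0. Slc25a14, a relative of the uncoupling proteins, peaked later, at ZT20.1 with 27.1%. The q of these 6 genes ran from 0.332 to 0.826.

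Counted over all 33 members, 18 had a fitted peak from ZT12 to ZT18 in C rats, or 54.5%, and so had 29.9% of all genes. In W rats it was 14 members, or 42.4%, against 15.9% of all genes. In WRF rats it was 5 members, or 15.2%, against 14.5% of all genes, and without WRF51 and WRF62 it was 9 members, or 27.3%, against 31.8% of all genes. Most of these fits did not pass any test, and the peak of a flat gene has no meaning of its own. The median amplitude of the members in C rats was 0.089 of the mean level, and that of all genes was 0.081.

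In W rats the 4 members at an unadjusted p under 0.05 included Slc25a10, Slc25a11, and the ornithine carrier Slc25a15, with peaks from ZT12.9 to ZT14.4 and amplitudes from 12.0% to 23.1%. Slc25a15 was the 1 left without W33 to W38, when 4.49% of all genes were at that level. In WRF rats they were Slc25a29, Slc25a33, Slc25a44, which carries branched-chain amino acids, and Slc25a45. Slc25a45 had the largest amplitude, 36.2% with a peak at ZT14.3 (p = 0.00593, q = 0.568), and 35.7% without WRF51 and WRF62 (p = 0.00672). Its rhythm differed between WRF and W rats at an unadjusted p of 0.000667 (adjusted p = 0.539). Without the 2 libraries 6 members of WRF rats were at an unadjusted p under 0.05, Slc25a24, Slc25a25, Slc25a33, Slc25a37, Slc25a44, and Slc25a45 (8.08% of all genes). The times of 12 WRF rats differ between their titles and another label. With the other label 1 member was at an unadjusted p under 0.05, without a share of all genes to set beside it.

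**Figure D5:**
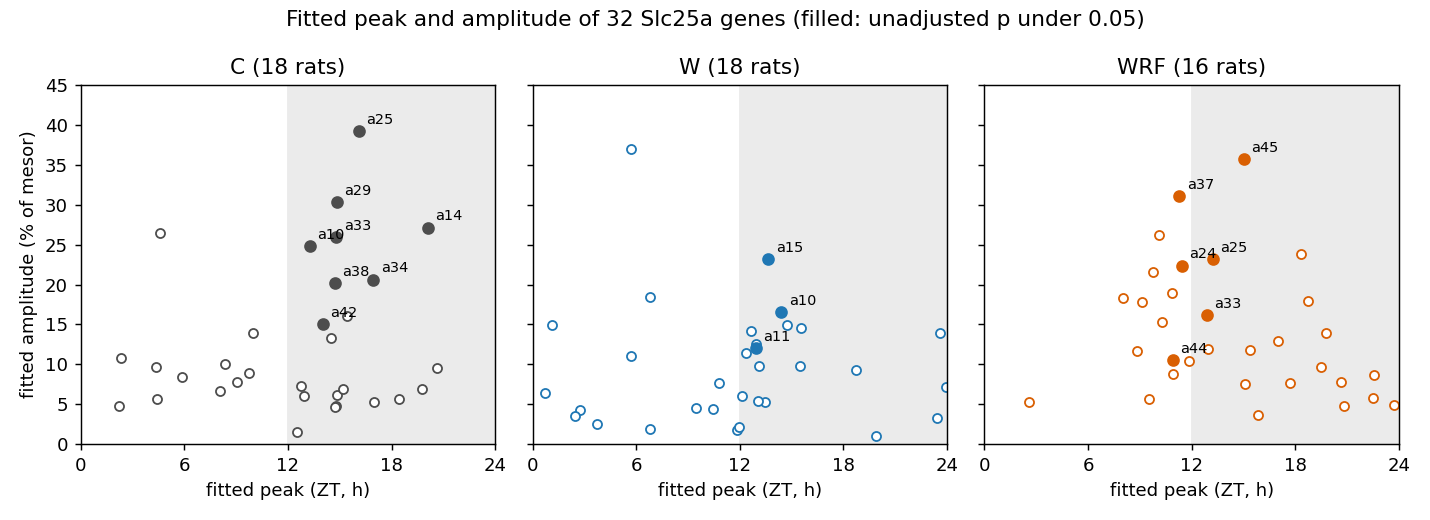
Fitted peak time in ZT and fitted amplitude, as a percent of the mean level, of 32 Slc25a genes in C, W, and WRF rats, the last without WRF51 and WRF62. Filled points have an unadjusted p under 0.05, and 7 of the 8 filled points of C rats lie between ZT12 and ZT18. Of all genes, whatever their p, 29.9% had a fitted peak there in C rats. The share among all genes at that p was not counted, so the 7 are not read as a result about the members.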

How the data were processed

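The authors made the deposited FPKM values before deposit. They built directional polyA libraries from crushed hearts, mapped the reads to rn6 (TopHat2, 1 place per read), quantified genes with Cufflinks, and kept those that passed 1 fpkm in 18 or more of 54 rats. Versions and annotation are not given in the sources used here. FPKM values do not show the depth of a library, and the library sizes the study lists were not used here. All 54 columns were used, and 0 were left out.

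Groups and times came from the titles. Kruskal-Wallis tests (Benjamini-Hochberg over all 10257 rows) with exact Mann-Whitney tests and harmonic regression were run in scipy 1.17.1 (Python 3.11.15). Limma 3.58.1 under R 4.3.3 gave differences, intervals, and rhythm differences from log2(fpkm + 1), with a trend in the variance. In simulated data the rank tests recovered 193 of 200 changed genes between WRF and C rats with 2 other calls among 10257 genes, limma 196 with 5, harmonic regression in WRF rats 151 with 8, and the test of rhythm differences between WRF and C rats 152 with 4. The group changes put into the simulated data were larger than that of any member and left out the lowest genes. The simulated data also held no outlying libraries and no differences between runs. These counts therefore do not show how well changes of the size reported here are found. Of 12 numbers shared by C and W rats, 6 pairs correlated above 0.1 (-0.185 to 0.647), so numbers were not taken as pairs. The members and lists were chosen with earlier results of these data known. Members are given at least by level; those given in more detail are the 10 most abundant members, those called in any pair or changed without WRF51 and WRF62, those with a harmonic p under 0.05 in any group, and up to 6 called genes of the transport lists. Slc25a17, Slc25a24, Slc25a26, and Slc25a37 were singled out after their values were seen. Alternatives changed 1 choice at a time. All 33 symbols matched RefSeq (GRCr8). One member and one gene of the transport lists enter the counts but are not reported here.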

Additional observations from a re-analysis of the deposited data

How the results depend on the processing

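Of 33 members, 2 were higher in WRF than in C rats, 3 were higher in WRF than in W rats, and 1 was lower in W than in C rats. These counts were small and moved with the setting. A count without a share of all genes beside it is not read as a result about the members. Each was 0 among rats with less than 100 fpkm of Myl7, where 0 genes of the table were called in any of these pairs, and after median-of-ratios scaling, where 2.17%, 2.14%, and 0.136% of all genes were called. Leaving out WRF51, WRF62, or W21 alone gave 1 to 3 members higher than in C rats, 1 to 3 higher than in W rats, and 0 to 1 lower in W than in C rats, and without WRF51 and WRF62 together the last was 0. It was also 0 when genes averaging under 5 fpkm were dropped. Limma, with a pseudocount of 1 or 0.1, called 4 members higher in WRF than in C, 1 lower in WRF than in W, and 0 lower in W than in C rats. Chosen after seeing the data, leaving out WRF1 to WRF6 gave 8 members higher and 2 lower than in C rats, beside 24.9% and 5.15% of all genes. Against W rats it gave 8 higher and 2 lower, without a share of all genes to set beside them. Leaving out either of the other runs of WRF numbers gave 0 members against C and against W rats. Among rats with less Myl7 the ratio of WRF to C rats reversed for Slc25a39 (0.981), and that of WRF to W rats for Slc25a39 (0.989). The 6 and 3 transport genes called higher in WRF than in C rats fell to 0 and 0 after scaling. The causes were not tested.

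The 2 members rhythmic in C rats at q under 0.05 became 1 after scaling, with Slc25a33 lost. They became 0 by Kruskal-Wallis, 0 without C17 to C22, 1 without C25 to C30, and 0 without C33 to C38. The last 3 settings were chosen after seeing the data. The 0 by Kruskal-Wallis does not count against the calls, since with 3 rats at each time that test can hardly reach this q. The 8 members at an unadjusted p under 0.05 in C rats became 3 by Kruskal-Wallis. Fewer rats or another test can change the calls of the whole table. Counts in this paragraph have no share of all genes beside them and are not read as results about the members. The 4 in W rats became 0 by Kruskal-Wallis and 1 without W33 to W38, the latter described above beside its share of all genes. The 4 in WRF rats became 1 by Kruskal-Wallis, 7 on the log2 scale, 1 with the other time label, and 2 to 4 without WRF51 or WRF62 alone. In the 24 C and W rats that share numbers, a replicate block raised the members at an unadjusted limma p under 0.05 from 3 to 7, with 0 called either way, and 1 of 12 pairs correlated best with its own number. FPKM values limit what can be said of the lowest carriers, since they do not show the reads behind a value.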

Other observations

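Slc25a37, the mitoferrin of red cell precursors, had its highest values in W34 (8.75 fpkm), WRF62 (4.72 fpkm), and W7 (3.40 fpkm). Alas2, the erythroid enzyme that starts heme synthesis, read 112 fpkm in W34, 162 in WRF62, and 139 fpkm in W7, and had a median of 30.7 fpkm in C, 28.97 in W, and 35.4 fpkm in WRF rats. Other rats with much Alas2 held less Slc25a37: WRF2 had 133 fpkm of Alas2 and 1.58 fpkm of Slc25a37, and C36 had 95.6 and 1.70 fpkm. The level of Slc25a37 was otherwise at most 3.37 fpkm, and its medians were 1.82 fpkm in C, 1.74 in W, and 1.45 fpkm in WRF rats, with a Kruskal-Wallis adjusted p of 0.560.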
